A study of Mus musculus with 12 samples.

Results

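The 36 genes described here build and run the mitotic spindle and the kinetochore. They comprise mitotic cyclins and kinases, the spindle assembly checkpoint, centromere and kinetochore proteins, the chromosomal passenger complex, spindle motors, cytokinesis factors, the machinery of anaphase, and the proliferation genes Mki67 and Top2a. They were taken by symbol from a list of mitosis genes and not by any measured threshold. All 36 were among the 15672 genes of the deposited table, and all 36 were among the 14147 genes that passed the filter on low values.

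RNA was sequenced from 12 libraries of mouse tissue labelled MB, taken here as medulloblastoma, a tumour of the cerebellum, at end point. SG tumours carried fSMO-M2;hGFAPcre, a conditional allele of activated Smoothened switched on by Cre recombinase from the human GFAP promoter. YSGr tumours carried fYap1;fSMO-M2;hGFAPcre, which is the same pair of alleles plus a floxed Yap1, and the submitters call them rescued without saying what was rescued. Both genotypes therefore share the activated Smoothened and the Cre, and no tissue without them was analysed here. There were 3 libraries each of SG males (numbered 1 to 3), SG females (4 to 6), YSGr males (7 to 9) and YSGr females (10 to 12), and ages were not given. The human GFAP promoter is active in neural stem and progenitor cells, so immune and vascular cells of a tumour keep their Yap1 alleles. Nothing states that libraries came from separate animals. The spread behind each p-value is therefore that of these 12 samples and may be partly technical. The series title asks about sex differences in the function of Yap1, which encodes a coactivator of transcription held in check by Hippo signalling.

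A cell enters mitosis when Cdk1 is activated by cyclin A2 and the B cyclins, together with Plk1 and the Aurora kinases. Spindle microtubules then attach to the kinetochores, protein assemblies on centromeres marked by the histone variant Cenpa, and the checkpoint holds the cell until every chromosome is attached. Cdc20 then activates the anaphase-promoting complex, which destroys cyclin B and securin and so frees separase to cut cohesin. Most of these genes are transcribed in G2 phase and mitosis, and in Hedgehog-driven medulloblastoma the dividing cells resemble granule neuron progenitors. In bulk RNA, fewer dividing cells and less RNA per dividing cell cannot be told apart, and this holds for every value below.

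The shared timing of these genes is known to run partly through short promoter elements. The cell cycle genes homology region (CHR) is bound by MuvB complexes, and the CCAAT box is bound by NF-Y. RefSeq promoter windows on GRCm38.p6, from 250 bases before to 50 after the annotated start, were matched by symbol for 30 of the 36 genes. The others were Aurkb, Ccna2, Incenp, Kif20a, Spc24 and Tpx2. The CHR core TTTGAA, or TTCAAA on the other strand, was in the window of 21 of these 30 genes (70%), against 20.2% of the 27025 genes of the promoter table. The CCAAT box, or ATTGG on the other strand, was in 23 of 30 (76.7%), against 41.1% of all genes. Both motifs were present for 18 of 30 (60%), against 8.97% of all genes, and the motifs can overlap by at most 1 base. A CHR core began within 50 bases of the start in 19 of 30 genes (63.3%), against 5.72% of all genes. These shares describe letters in a window and do not show that a factor bound there.

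The 120 bases before the start are shown for the 7 promoters available among the 9 genes whose values are given for every library below, so that the motifs can be compared between them. Capitals mark each CHR core and each CCAAT box on either strand. The stretches are chr7:135716380-135716499 for Mki67, chr11:99024190-99024309 for Top2a, chr10:69352913-69353032 for Cdk1, chr13:100786487-100786606 for Ccnb1, chr9:70421555-70421674 for Ccnb2 and chr4:118437344-118437463 for Cdc20, all on the minus strand, and chr7:122159315-122159434 for Plk1 on the plus strand.
Mki67: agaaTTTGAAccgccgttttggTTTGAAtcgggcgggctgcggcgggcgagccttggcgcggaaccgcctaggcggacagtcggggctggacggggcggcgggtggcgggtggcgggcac
Top2a: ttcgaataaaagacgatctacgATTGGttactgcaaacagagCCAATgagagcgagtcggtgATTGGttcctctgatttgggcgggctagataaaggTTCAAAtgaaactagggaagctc
Cdk1: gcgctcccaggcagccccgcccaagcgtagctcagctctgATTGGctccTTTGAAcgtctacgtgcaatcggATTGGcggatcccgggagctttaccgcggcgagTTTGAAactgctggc
Ccnb1: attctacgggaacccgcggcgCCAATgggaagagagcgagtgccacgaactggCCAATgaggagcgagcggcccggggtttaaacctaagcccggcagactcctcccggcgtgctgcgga
Ccnb2: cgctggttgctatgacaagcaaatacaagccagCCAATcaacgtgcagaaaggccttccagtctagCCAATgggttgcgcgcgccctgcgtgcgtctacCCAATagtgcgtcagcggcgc
Cdc20: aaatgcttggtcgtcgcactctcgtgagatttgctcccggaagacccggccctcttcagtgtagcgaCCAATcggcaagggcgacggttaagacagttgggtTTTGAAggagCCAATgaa
Plk1: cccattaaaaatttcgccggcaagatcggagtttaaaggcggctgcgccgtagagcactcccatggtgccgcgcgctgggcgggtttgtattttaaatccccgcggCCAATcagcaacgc
Counting the annotated start as 0, a CHR core began at -15 and -71 in Cdk1, at -18 in Cdc20, at -23 and -179 in Top2a, and at -98 and -116 in Mki67. In Plk1 and Ccnb2 a core lay just after the start, at 30 and 4, and Ccnb2 had another at -167. These and the Top2a core at -179 lie outside the stretch shown. No core was in the Ccnb1 window, which held a pair of CCAAT boxes at -67 and -99.

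The libraries held 8854775 to 9478652 estimated reads, and a mitotic gene had 123 to 7968 estimated reads in a library, so none was near the floor of detection. Yap1, the targeted gene, was lower in all 6 YSGr libraries (12.5-fold, limma adjusted p = 1.13e-06). In SG it was at 4.29 to 4.80 log2 CPM (CPM, reads scaled to a common library size). It was at 1.82, 1.72 and 0.73 log2 CPM in YSGr males and at 0.21, 0.55 and -0.02 in YSGr females, from 7 to 33 estimated reads. Each YSGr female was thus below each YSGr male, and the part of this in the sex comparisons below was not tested. As a check of the tissue label, the granule neuron progenitor markers Atoh1 and Barhl1 were at 6.73 to 7.76 and at 9.19 to 10.3 log2 CPM over the 12 libraries. Libraries standing apart were SG male 2, where short genes were high and long genes low, and YSGr male 8, where summed oligodendrocyte markers reached 8953 CPM against 1111 to 2702 CPM elsewhere.

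Across both sexes the mitotic genes were a little lower in YSGr than in SG tumours, but few differences exceeded the spread between libraries. The log2 fold change of YSGr against SG, weighted equally over the sexes, was below 0 for 33 of 36 genes (91.7%), against 50.6% of all genes tested, and for 34 after median centring or quantile normalization. Its median was -0.29, against -0.00 over all genes tested. Incenp and Aurkb fell, which is 2 of 36 genes past a limma adjusted p of 0.05 (5.56%), and no mitotic gene rose. Among all genes tested 11.4% passed in either direction and 5.27% passed as lower, so the share of calls was near the background. At an unadjusted p under 0.05, 11 genes were lower (30.6%), against 13.8% of all genes. Incenp was the 1 gene of 36 (2.78%) with all 6 YSGr libraries below all 6 SG libraries, against 2.96% of all genes. The genes share their libraries and vary together, so these counts are not 36 separate observations.

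**Figure D1:**
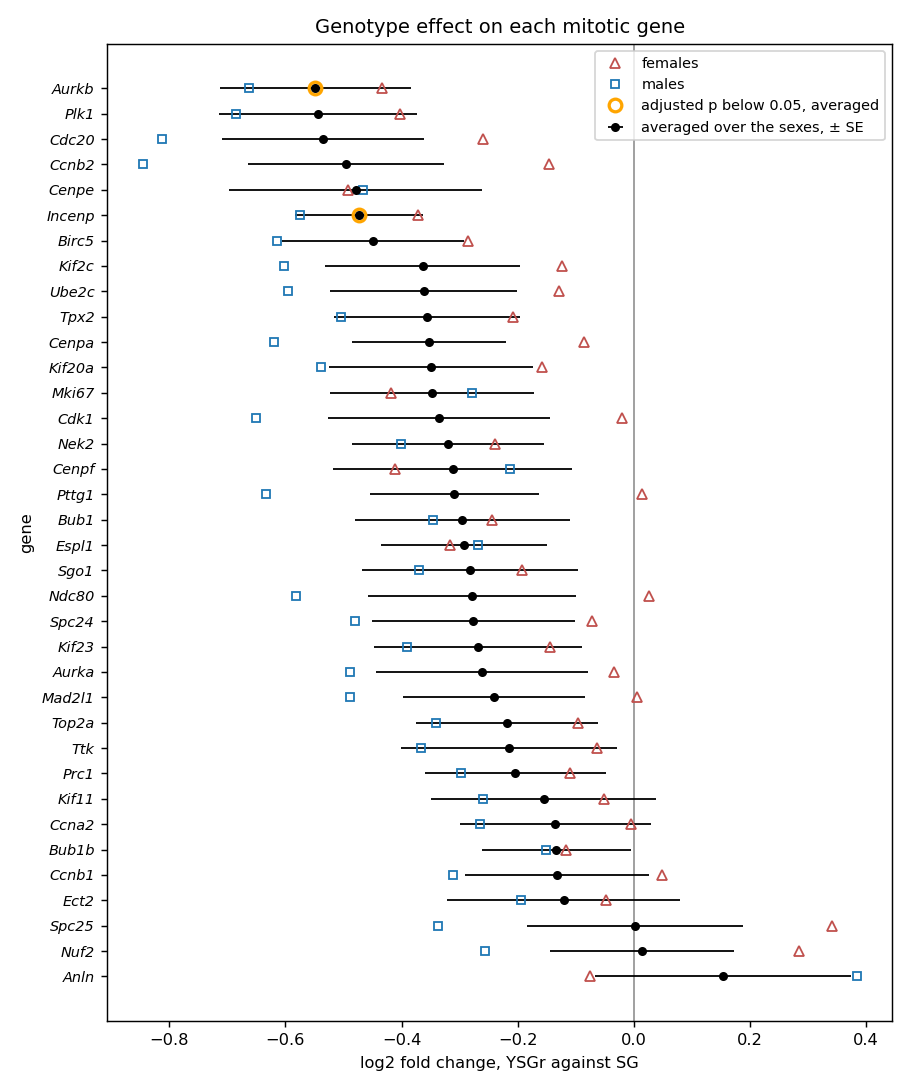
Log2 fold change of YSGr against SG for the 36 mitotic genes (x axis), ordered by the value averaged over the sexes (black points, bars are ± 1 standard error of the limma fit, 12 libraries), with the effect in males (blue squares) and in females (red triangles). Gold rings mark Aurkb and Incenp, the 2 genes past an adjusted p of 0.05, and 33 of the 36 black points lie below 0.

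The number of calls depended on single libraries. Without YSGr female 12 it was 6 (Aurkb, Ccnb2, Cdc20, Incenp, Kif2c and Plk1), all lower, or 16.7% of the 36 genes, where 14.8% of all genes were called and 6.3% were called as lower. It was 0 without SG female 6, where 6.38% of all genes were called. There was 1 call without SG male 2, SG male 3, or either of SG females 4 and 5. The same held without YSGr male 8, YSGr male 9, YSGr female 10 or YSGr female 11. That is 2.78% of the 36 genes, where 6.5% to 13.1% of all genes were called and 2.93% to 6.57% were called as lower. The median log2 fold change was -0.15 without YSGr female 11 and -0.40 without YSGr female 12, with 29 to 35 of 36 genes below 0 over the 12 sets that leave out 1 library. Incenp stayed past the threshold in 11 of those 12 sets, the exception being the set without SG female 6 (adjusted p = 0.055). Aurkb stayed past it in 2 of 12.

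The chromosomal passenger complex, which corrects faulty attachments of microtubules and later steers cytokinesis, held both of the called genes. Incenp, the scaffold that activates the kinase of this complex, was at 6.86, 7.21 and 6.86 log2 CPM in SG males, 6.79, 6.92 and 7.07 in SG females, 6.54, 6.27 and 6.41 in YSGr males and 6.67, 6.27 and 6.72 in YSGr females. The highest YSGr library, female 12, was below the lowest SG library, female 4, so the genotypes did not overlap. Incenp was 1.39-fold lower in YSGr (log2 fold change -0.47, standard error 0.11, limma adjusted p = 0.0160). Aurkb, the kinase itself, was at 6.20, 6.52 and 6.19 log2 CPM in SG males, 6.40, 6.28 and 6.49 in SG females, 5.97, 5.21 and 5.73 in YSGr males and 6.24, 5.41 and 6.22 in YSGr females. YSGr females 10 and 12 reached the lower SG values, while YSGr male 8 and YSGr female 11 were lowest. Aurkb was 1.46-fold lower (log2 fold change -0.55, standard error 0.16, limma adjusted p = 0.0486), a value just inside the threshold. Birc5, the survivin subunit that brings the complex to centromeres, had a log2 fold change of -0.45 (adjusted p = 0.081). Cdca8, which encodes borealin, the remaining subunit, is not among the 36 genes and was also lower (-0.52, limma adjusted p = 0.042).

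Of the 7 mitotic cyclins and kinases, none passed the threshold over both sexes, with log2 fold changes from -0.54 to -0.13 and a median of -0.32. Plk1, a kinase of mitotic entry, centrosomes and kinetochores, was at 6.84, 7.20 and 6.82 log2 CPM in SG males, 6.90, 6.68 and 6.95 in SG females, 6.50, 5.98 and 6.32 in YSGr males and 6.74, 5.78 and 6.80 in YSGr females. Its 3 YSGr males were below every SG library, and YSGr females 10 and 12 were inside the SG range (log2 fold change -0.54 ± 0.17 standard error, limma adjusted p = 0.058). Ccnb2, cyclin B2, was at 5.77, 6.55 and 6.13 log2 CPM in SG males, 5.83, 5.97 and 6.12 in SG females, 5.47, 4.85 and 5.58 in YSGr males and 5.85, 5.48 and 6.15 in YSGr females. YSGr male 8 was lowest of all, and YSGr female 12 was second only to SG male 2 (log2 fold change -0.50 ± 0.17, limma adjusted p = 0.075).

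Cdk1, the kinase that drives mitosis, was at 6.49, 7.25 and 6.76 log2 CPM in SG males, 6.55, 6.57 and 6.76 in SG females, 6.42, 5.93 and 6.20 in YSGr males and 6.77, 5.92 and 7.13 in YSGr females. The YSGr libraries spanned a wider range than the SG libraries and enclosed all of them except SG male 2 (log2 fold change -0.34 ± 0.19, limma adjusted p = 0.27). Ccnb1, cyclin B1, was at 6.92, 6.95 and 7.20 log2 CPM in SG males, 7.06, 7.02 and 7.12 in SG females, 6.88, 6.51 and 6.74 in YSGr males and 7.24, 6.48 and 7.62 in YSGr females. YSGr females 10 and 12 were above every SG library, and the other 4 YSGr libraries were below every one (log2 fold change -0.13 ± 0.16, adjusted p = 0.62). The remaining values were -0.14 for Ccna2 (cyclin A2), -0.26 for Aurka (the spindle pole Aurora kinase) and -0.32 for Nek2 (a kinase that separates centrosomes).

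**Figure D2:**
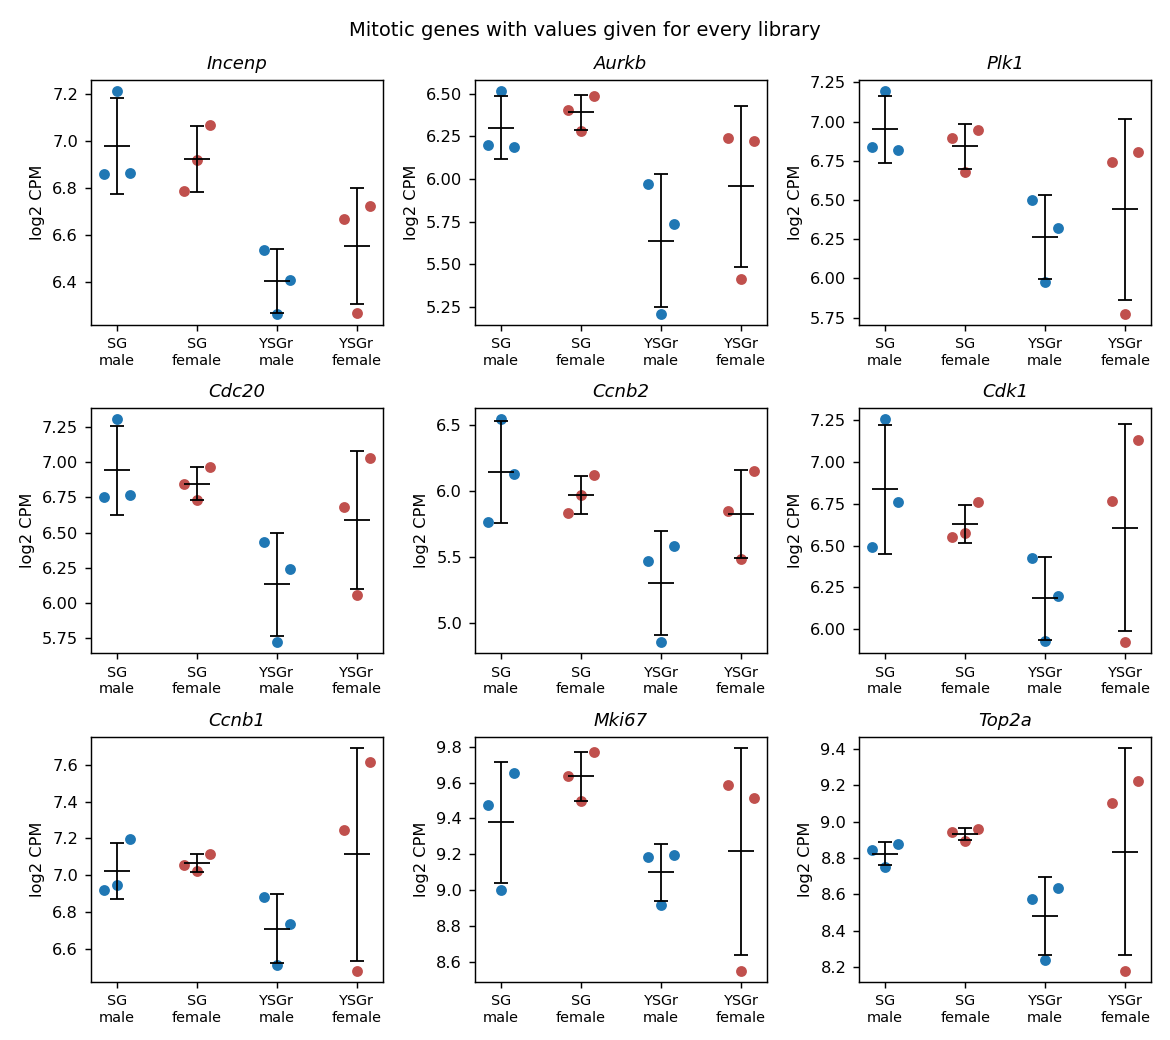
Log2 CPM (y axis, a separate scale in each panel that does not start at 0) of the 9 genes with values given for every library, by genotype and sex; points are libraries, long bars are group means and error bars are ± 1 SD with 3 libraries a group. For Incenp every YSGr point is below every SG point, and for Ccnb1 and Top2a YSGr females 10 and 12 are above all SG points and YSGr female 11 below them.

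The 5 genes of the anaphase machinery had log2 fold changes from -0.54 to -0.28, and none passed over both sexes. Cdc20, the activator of the anaphase-promoting complex, was at 6.76, 7.31 and 6.77 log2 CPM in SG males, 6.85, 6.73 and 6.97 in SG females, 6.43, 5.72 and 6.24 in YSGr males and 6.68, 6.06 and 7.03 in YSGr females. Apart from YSGr female 12, every YSGr library was below every SG library (log2 fold change -0.54 ± 0.17 standard error, limma adjusted p = 0.065). Ube2c, which charges the complex with ubiquitin, had -0.36, Pttg1, the securin that blocks separase, -0.31, Espl1, separase itself, -0.29, and Sgo1, which protects centromeric cohesion, -0.28.

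The 4 checkpoint genes had a median log2 fold change of -0.23 and the 7 centromere and kinetochore genes one of -0.28, with none past the threshold in either group. In the checkpoint the values were -0.30 for Bub1 (a kinase at unattached kinetochores), -0.24 for Mad2l1 (which holds Cdc20 inactive), -0.22 for Ttk (the Mps1 kinase) and -0.13 for Bub1b (BubR1). Cenpe, the kinesin that moves chromosomes to the spindle equator, had -0.48 (limma adjusted p = 0.17) and Cenpa, the centromeric histone, -0.35 (adjusted p = 0.10). Cenpf, a large outer kinetochore protein, had -0.31. Of the 4 subunits of the Ndc80 complex, the main microtubule coupler, Ndc80 and Spc24 had -0.28 each, and Nuf2 and Spc25 were near 0, at 0.01 and 0.00.

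The 6 kinesins and spindle factors had log2 fold changes from -0.36 to -0.15, with none past the threshold. Kif2c, which depolymerises microtubules at kinetochores, had -0.36, Tpx2, the activator of Aurka, -0.36, and Kif20a and Kif23, motors of the spindle midzone, -0.35 and -0.27. Prc1, which bundles midzone microtubules, had -0.20 and Kif11, the motor that pushes spindle poles apart, -0.15. In cytokinesis Ect2, which activates RhoA at the cleavage site, had -0.12. Anln, an anillin of the contractile ring, had 0.15, the highest of the 36 values (standard error 0.22). Anln is also abundant in myelinating oligodendrocytes, and it was at 6.69 log2 CPM in YSGr male 8, the library with the most oligodendrocyte RNA, where each of the other 35 mitotic genes had one of its 3 lowest values. The part of oligodendrocytes in this value was not tested.

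Mki67, the Ki-67 antigen that coats mitotic chromosomes, was at 9.48, 9.00 and 9.65 log2 CPM in SG males, 9.64, 9.50 and 9.77 in SG females, 9.19, 8.92 and 9.20 in YSGr males and 9.59, 8.55 and 9.51 in YSGr females. SG male 2 lay within the YSGr male values, and YSGr females 10 and 12 lay within the SG values (log2 fold change -0.35 ± 0.18, limma adjusted p = 0.21). Top2a, the topoisomerase that untangles sister chromatids, was at 8.84, 8.75 and 8.87 log2 CPM in SG males, 8.94, 8.89 and 8.96 in SG females, 8.58, 8.24 and 8.63 in YSGr males and 9.10, 8.18 and 9.22 in YSGr females. As for Ccnb1, YSGr females 10 and 12 were above every SG library and the other 4 YSGr libraries below every one (log2 fold change -0.22 ± 0.16, adjusted p = 0.38).

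Per kilobase of annotated exon, the level in SG was highest for Mki67 at 73.3 ± 12.4 CPM per kb (SD, n = 6 libraries), with Ube2c at 73.2 ± 16.4, an order within their spread. Ccna2 and Cdc20 followed at 64.4 each and Plk1 at 54.5 CPM per kb. The lowest levels were 3.93 ± 0.47 CPM per kb for Ndc80, 7.80 ± 0.57 for Ttk and 8.19 ± 0.85 for Kif23 (SD, n = 6). Strand use in counting was not given in the sources used here, and 8 genes share exon bases with another annotated gene, among them Plk1 (Gm44985), Cdc20 (Elovl1), Top2a (Gm23451) and Ccna2 (Exosc9). Ccnb1 and Ccnb2 also have annotated pseudogenes, Ccnb1-ps and Ccnb2-ps, so reads of these genes could be split.

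The pattern across libraries was common to nearly all 36 genes. The mean difference of the 36 genes from their own means over 12 libraries was 0.05, 0.19 and 0.18 on the log2 scale in SG males and 0.14, 0.07 and 0.23 in SG females. It was -0.11, -0.57 and -0.21 in YSGr males and 0.21, -0.57 and 0.40 in YSGr females. By this mean the SG libraries were close to each other, YSGr male 8 and YSGr female 11 were low, and YSGr female 12 was highest. The mean hides opposite values in SG male 2, which was among the 3 highest libraries for 18 genes and among the 3 lowest for 6. YSGr female 11 was the lowest library for 18 genes, YSGr male 8 for 17 and YSGr male 9 for 1 (Pttg1). YSGr female 12 was the highest for 19 genes and SG male 2 for 11.

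**Figure D3:**
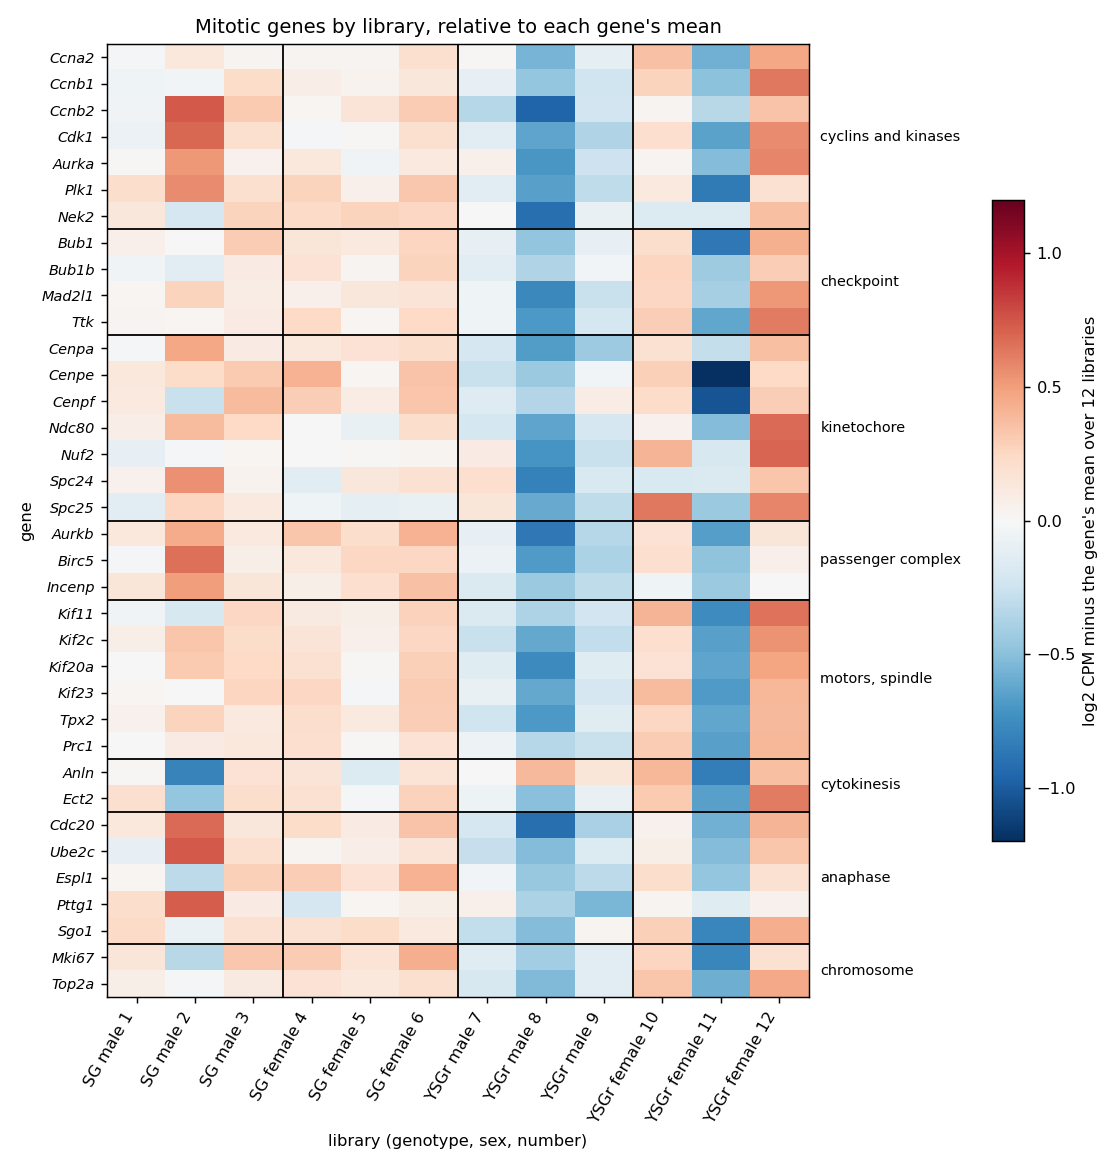
Log2 CPM of each of the 36 mitotic genes (rows, grouped by role) in each of the 12 libraries (columns) minus that gene's mean over the libraries, from blue (lower) to red (higher), with lines between the groups. YSGr male 8 and YSGr female 11 are blue for nearly every gene, YSGr female 12 is red for nearly every gene, and SG male 2 is mixed.

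The spread between libraries was wider in YSGr than in SG for 35 of the 36 genes (97.2%), against 63.8% of all genes tested. The median SD over 6 libraries was 0.16 in SG and 0.45 in YSGr on the log2 scale, while over all genes tested it was 0.25 and 0.28. The exception was Pttg1, with an SD of 0.31 in SG and 0.26 in YSGr. Without SG male 2 and YSGr male 8 the count was 36 of 36. Without YSGr male 8 and YSGr female 11, the 2 low libraries, it was 29 of 36 (80.6%). The share of all genes was not counted in these smaller sets, so neither count has a background to be read against. The comparison of spread was chosen after the values were seen and carries no test.

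In males most fold changes were below 0, and 2 genes passed the test. Of 36 genes, 35 had a log2 fold change below 0 in YSGr males (97.2%, against 50.7% of all genes tested), the exception being Anln at 0.38, and the median was -0.43. For 22 genes (61.1%, against 18% of all genes tested) all 3 YSGr males were below all 3 SG males, among them Cdk1, Ccnb1, Ccnb2, Plk1, Aurkb, Incenp, Cdc20 and Top2a. Mki67 was not among them, since SG male 2 (9.00 log2 CPM) was below YSGr males 7 and 9. Ccnb2 and Incenp fell, by 0.85 and 0.58 on the log2 scale, with limma adjusted p = 0.0485 and 0.0438. That is 5.56% of the genes, against 7.85% of all genes tested called in either direction and 3.42% called as lower. At an unadjusted p under 0.05, 15 genes were lower (41.7%), against 15.1% of all genes.

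Both calls in males lay close to the threshold. In males none of the 36 genes was called without SG male 2, SG male 3 or any 1 of the SG females. The same held without YSGr male 8, YSGr male 9 or YSGr female 10. In those sets 2.04% to 5.64% of all genes were called in males, against 7.85% with all libraries. Without SG male 1 or YSGr male 7, 1 of the 36 genes was called, as lower (2.78%). Of all genes 6.11% and 5.92% were called, and 2.82% and 2.75% were called as lower. There were 8 calls without YSGr female 11 (Aurkb, Ccnb2, Cdc20, Cenpa, Incenp, Kif2c, Plk1 and Tpx2), all lower, or 22.2%. Of all genes 11.8% were then called and 4.73% were called as lower. Without YSGr female 12 there were 4 calls, all lower, or 11.1%. Of all genes 9.26% were then called and 3.78% were called as lower. Leaving out a female library changed these counts in males because all libraries share 1 estimate of the spread. The median in males was -0.24 without YSGr male 8 and -0.55 without YSGr male 7, and 35 of 36 genes stayed below 0 in each of the 12 sets that leave out 1 library. The number of genes without overlap between the genotypes was 22 to 29 when 1 male library was left out, against 21.4% to 26% of all genes tested.

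In females no mitotic gene was called by limma (0 of 36, against 3.01% of all genes tested in either direction and 1.87% as lower). Incenp, at -0.37, was the 1 gene lower at an unadjusted p under 0.05 (2.78%, against 7.68% of all genes). The log2 fold change was below 0 for 30 of 36 genes (83.3%, against 47.8%), with a median of -0.12. All YSGr females were below all SG females for Aurkb and Incenp alone (5.56%, against 13.9% of all genes). The highest values were 0.34 for Spc25 and 0.29 for Nuf2, and the lowest -0.49 for Cenpe, -0.43 for Aurkb and -0.42 for Mki67. The sign of the female median rested on 1 library: it was 0.15 without YSGr female 11, with 7 of 36 genes below 0, and -0.32 without YSGr female 12, with 34 below 0.

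The difference between the sexes was tested directly, as the female effect minus the male effect. No mitotic gene passed (0 of 36, against 0.00707% of all genes tested, which is 1 gene), and the estimate was above 0 for 31 of 36 genes (86.1%, against 50.4%), with a median of 0.29. Pttg1 was the 1 gene at an unadjusted p under 0.05 (2.78%, against 11.6% of all genes), at -0.63 in males and 0.01 in females, with a 95% interval of the difference from 0.02 to 1.28 and a limma adjusted p of 0.43. For Cdk1 the effects were -0.65 in males and -0.02 in females, and the interval of the difference ran from -0.20 to 1.46 (adjusted p = 0.49). For Mki67 the order was the other way, -0.28 in males and -0.42 in females, with an interval from -0.90 to 0.62. SG male 2 was the highest SG male for Pttg1 (4.97 against 4.45 and 4.34 log2 CPM) and for Cdk1 (7.25 against 6.49 and 6.76). The same library was the lowest SG male for Mki67 (9.00 against 9.48 and 9.65). The male effects of Pttg1, Cdk1 and Mki67 thus lean on that library, and their differences without it are not given here. No difference passed the adjusted test, so the male and female effects were not separated for any of the 36 genes with 3 libraries a group. The interval of Pttg1 excludes 0, but intervals are not adjusted for the number of genes tested. Nor do the intervals show that the male and female effects are alike. The median difference was 0.61 without YSGr female 11 and 0.10 without YSGr female 12.

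Within genotypes, SG females and SG males differed by a median of 0.04 on the log2 scale. None of the 36 genes was called by limma and none had an unadjusted p under 0.05 (0 of 36, against 0.0353% and 1.83% of all genes tested). In YSGr the estimate was higher in females for 34 of 36 genes (94.4%, against 52.9%), with a median of 0.32, and again no gene was called (0 of 36, against 0.0778% of all genes tested). Ccnb2, Cenpa, Mad2l1 and Nuf2 had an unadjusted p under 0.05 (11.1%, against 18.1% of all genes). Without YSGr female 11, 13 genes (36.1%) were called as higher in YSGr females and the median was 0.62, while 7.27% of all genes were called and 1.27% were called as higher. Without YSGr female 12 the median was 0.13.

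Other genes of the mitotic pathway were counted in the same fit. Of 126 further tested genes of kinetochore, spindle, condensin and cohesin, the anaphase-promoting complex, mitotic entry and its transcription factors, 8 fell (6.35%, near the 5.27% of all genes called as lower) and none rose over both sexes, with a median of -0.21. The 8 genes were Cdca5 (sororin, which stabilises cohesion) at -0.62, Cks1b (a Cdk1 partner) at -0.59, Bora (an activator of Aurka and Plk1) at -0.58, Tacc3 (a spindle microtubule factor) at -0.52, Cdca8 at -0.52, Cdc25b (the phosphatase that activates Cdk1) at -0.51, Mybl2 (B-Myb, a MuvB partner) at -0.50 and E2f4 (a DREAM subunit) at -0.35. None of the 15 genes of the anaphase-promoting complex and its regulators passed over both sexes, and Foxm1, the other MuvB partner, had -0.34 (limma adjusted p = 0.069). Of 20 genes of G1/S and S phase, 4 fell and none rose: Gins2 at -0.61, Mcm2 at -0.50, Cdk2 at -0.45 and Uhrf1 at -0.43, all of which except the chromatin factor Uhrf1 act in starting DNA replication. The median of these 20 genes was -0.33, and 5.27% of all genes were called as lower. Of 9 cell cycle inhibitors Cdkn2a rose by 1.12 and Cdkn1c fell by 1.04 on the log2 scale. By library, the 34 other kinetochore genes had mean differences of -0.54 in YSGr male 8, -0.36 in YSGr female 11 and 0.34 in YSGr female 12, close in sign and order to those of the 36 genes. The S phase genes were nearer to their mean in YSGr female 11, where their mean difference from the 12-library mean was -0.14 against -0.57 for the mitotic genes, while in YSGr male 8 it was -0.80 against -0.57.

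**Figure D4:**
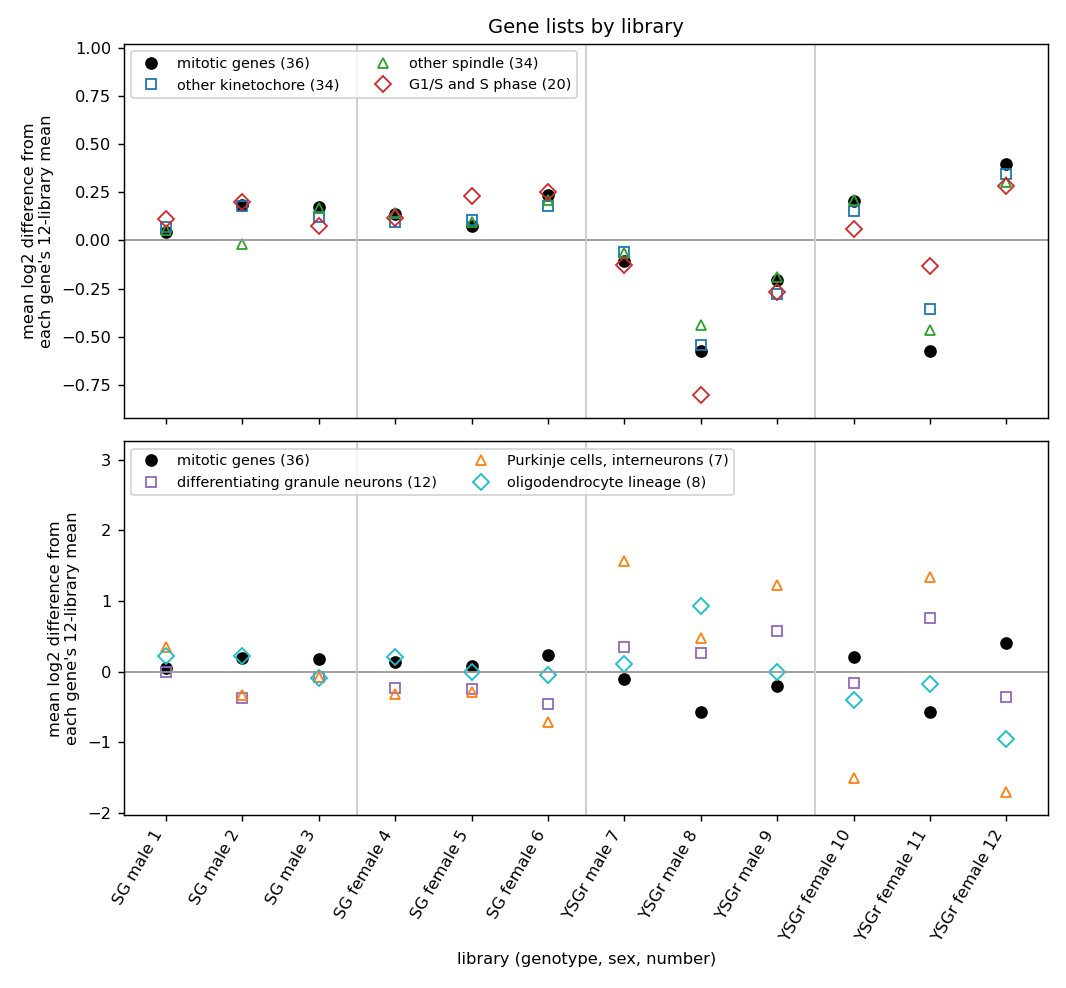
Mean log2 difference from each gene's own mean over 12 libraries (y axis, separate scales) in each library (x axis) for the mitotic genes and, above, other kinetochore, other spindle and S phase genes, and, below, markers of other cells, with the number of genes in parentheses. In YSGr female 11 the S phase genes (-0.14) stay closer to 0 than the mitotic genes (-0.57), and the mean of the Purkinje and interneuron markers is above 0 in the 4 YSGr libraries where mitotic genes are below 0, although 4 of the 7 markers are low in YSGr male 8.

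Markers of several cell types differed between the libraries or the genotypes. Over both sexes 6.16% of all genes tested were called as higher in YSGr and 5.27% as lower. The counts of markers below are to be read against these shares. Summed Purkinje cell and interneuron markers were at 870, 534 and 681 CPM in YSGr males 7 to 9 and at 708 CPM in YSGr female 11, where mitotic genes were below their mean, and at 99.8 and 101 CPM in YSGr females 10 and 12, where they were above it. In SG they were at 196 to 386 CPM. In YSGr male 8 the sum came mostly from the interneuron genes Gad1, Gad2 and Slc32a1, at 7.48, 7.25 and 6.69 log2 CPM. The other 4 markers were below every SG library there, with Pcp2 of Purkinje cells at 3.26 log2 CPM against 4.97 to 5.96 in SG. Of 12 markers of differentiating granule neurons 4 rose over both sexes, Neurod1 (0.51), Car10 (0.75), Snap25 (1.16) and Syt1 (1.19), and none fell. The others did not pass, with values from -0.09 for Tubb3 to 0.77 for Grin2c. Snap25 was at 7.39 and 6.93 log2 CPM in YSGr females 10 and 12, against 6.72 to 7.43 in SG and 8.55 to 9.53 in the other YSGr libraries. Summed levels of the 12 markers were 2915 to 3690 CPM in SG and 3491 to 4837 CPM in YSGr. Of 9 progenitor markers Gli1 (-0.82), Atoh1 (-0.59) and Barhl1 (-0.49) fell and none rose, while Zic2 (0.35), Sfrp1 (0.29) and Zic1 (0.19) had values above 0 that did not pass. Their summed levels were 4269 to 5354 CPM in SG and 3312 to 5502 CPM in YSGr. Of 8 infiltrating macrophage markers 6 rose, with summed levels of 198 to 274 CPM in SG and 440 to 838 CPM in YSGr. Of 7 neutrophil markers 6 were among the deposited values and 5 passed the filter on low values, and all 5 rose. Summed levels of the 6 were 11.9 to 16.1 CPM in SG and 17.9 to 40.1 CPM in YSGr. The filter needs a value above 0 log2 CPM in only 3 libraries, so a marker seen in YSGr alone can pass it. The count of 5 neutrophil markers may therefore be partly set by the filter. By library, the macrophage markers had mean differences from the 12-library mean of -0.89 to -0.46 in SG. The values were 1.115, 0.85 and 0.54 in YSGr males and 1.00, 0.29 and 0.35 in YSGr females. Of 7 endothelial markers 4 fell and none rose, among them Kdr (-1.55) and Cldn5 (-1.11), with summed levels of 66.5 to 119 CPM in SG and 40.0 to 69.1 CPM in YSGr. Of 8 neural stem cell and astrocyte markers 4 fell, led by Hes5 (-1.69), and Gfap rose (0.98), with summed levels of 1250 to 2043 CPM in SG and 1058 to 2205 CPM in YSGr. Of 7 pericyte and fibroblast markers Col3a1 (-1.62) and Pdgfrb (-1.09) fell and Dcn (0.97) rose, with summed levels of 171 to 244 CPM in SG and 118 to 243 CPM in YSGr. Of 8 oligodendrocyte lineage markers Olig1 (-0.68), Olig2 (-0.67) and Cspg4 (-0.54) fell and none rose. None of 4 erythroid markers tested and none of 7 microglia markers passed. Of 7 T cell markers Cd4 was the 1 gene tested, at 30 to 188 estimated reads in a library, and it did not pass (log2 fold change 0.45). The T cell marker Cd3e had 0 to 2 estimated reads in a library. The part of these cells in the mitotic differences was not tested.

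In SG male 2 the mitotic genes divided by length. Against the mean of the other 5 SG libraries, the 18 genes with at most 4439.5 exon bases had a median difference of 0.31 with 14 above 0, and the 18 longer genes one of -0.12 with 5 above 0. Among all genes tested, those of at most 3422 exon bases had a median of 0.44 and those above 5956 exon bases one of -0.41 in this library, so the mitotic genes shared a pattern of the whole library. Pttg1 was 0.69 higher there and Anln 0.87 lower, at 2000 and 9063 exon bases. The cause was not tested. Without SG male 2 the median log2 fold change of the 36 genes over both sexes was -0.26.

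**Figure D5:**
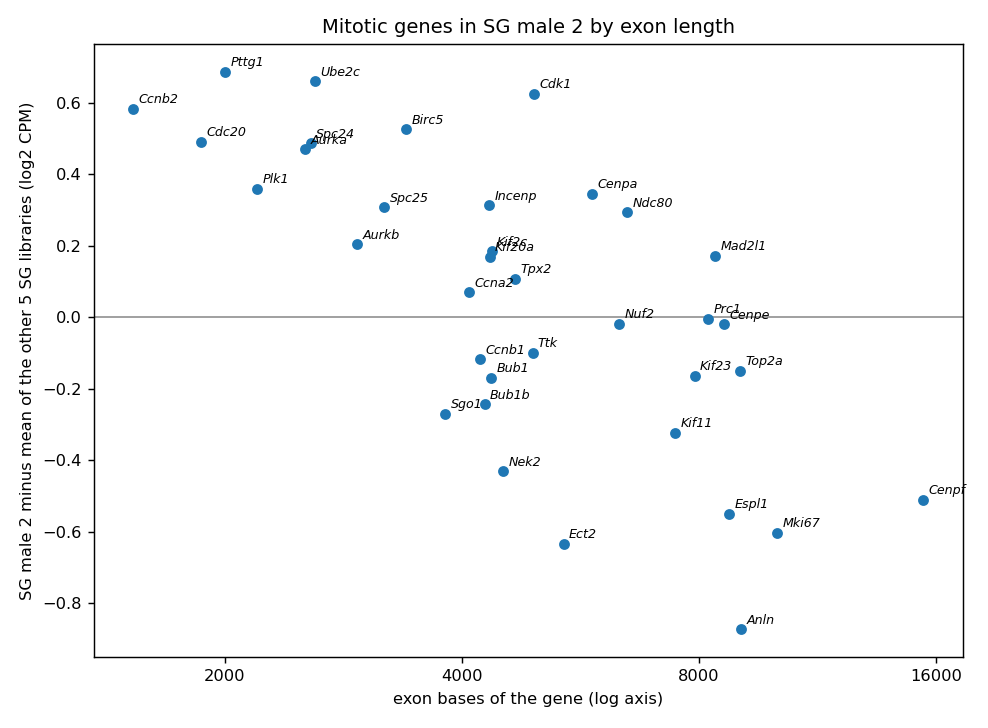
Difference between SG male 2 and the mean of the other 5 SG libraries in log2 CPM (y axis) against annotated exon bases (x axis, log scale) for the 36 mitotic genes. Short genes such as Pttg1, Ube2c and Ccnb2 lie above 0 and long genes such as Anln, Mki67 and Cenpf below.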

How the data were processed

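Per the labels, RNA of 12 libraries was extracted by a Trizol-type protocol and read on a BGISEQ-500. The authors deposited 1 table of log2 CPM values, which are counts made relative to library size and then log2-transformed. Per the submitters' processing notes, the tools were RSEM 1.2.12 and Bowtie2, with Trimmomatic 0.33, Picard 1.95 and edgeR 3.30.3, and the build was mm10. Not given in the sources used here: the annotation, strand setting, filter and prior count. The deposited values lie on steps of 1 read (0.100 to 0.111 CPM), and the reads estimated from them lay within 0.02 of a whole number for 91.4 to 93.1% of genes. The sum was 8854775 to 9478652 estimated reads per library. Because log2 values are not counts, no count test was run, and the prior count makes fold changes of low genes too small.

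The deposited values were fitted with limma 3.58.1 (R 4.3.3, with statmod 1.5.0), with 1 coefficient for each of 4 groups, eBayes with a mean-variance trend, two-sided tests and Benjamini-Hochberg adjustment over 14147 genes with log2 CPM above 0 in at least 3 libraries. The threshold was an adjusted p of 0.05 and intervals are at 95%. The script was tested on simulated data. The 6 comparisons share libraries: the averaged one uses those of both sexes.

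The genes, the other pathway lists and the marker lists were chosen with earlier results of these data known. Values in every library are given for Mki67, Top2a, Cdk1 and Ccnb1, for each gene past the threshold in any comparison and for the 5 genes with the smallest p over both sexes. Of other lists, up to 4 genes by smallest p are named. Subunits, partners, list members and extremes named beyond this rule were chosen after their values were seen. Gene positions and exon lengths are from GENCODE M21 (mm10), which matched 15602 gene names, and promoters are from RefSeq on GRCm38.p6. Alternatives covered the filter, the scaling, the pseudocount, the trend, library weights, the sex term, the libraries that share a spread, and leaving out libraries.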

Additional observations from a re-analysis of the deposited data

Results flagged for a closer look

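For each of the 36 genes the 6 libraries of a genotype were searched for a single value far from the others by Dixon's test. Chance gives about 1 such value in 20 independent groups, and 7 were found among 72. The 72 groups share the same libraries and are not independent, and the search was not run over all genes. The count therefore cannot be read as an excess in the mitotic genes. Of the 7 values, 6 were in SG male 2, and they went both ways. SG male 2 was high for Cdk1, at 7.25 where the other SG libraries were at 6.49 to 6.76 log2 CPM, for Aurka, at 6.46 against 5.90 to 6.06, and for Ube2c, at 8.10 against 7.26 to 7.56. The same library was low for Nek2, at 5.08 against 5.42 to 5.55, for Sgo1, at 5.20 against 5.40 to 5.51, and for Anln, at 5.50 against 6.14 to 6.48. The remaining value was Anln in YSGr female 11, at 5.47 log2 CPM against 6.31 to 6.70 in the other YSGr libraries.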

How the results depend on the processing

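No paired analysis was possible because the libraries are numbered 1 to 12 without repeats and nothing in the labels pairs them. Each mitotic gene had 123 or more estimated reads in each library, and the part of counting error in the spread between libraries was not tested. Filters, scalings and the log2(CPM + 1) scale kept the direction of every median, and median centring and quantile normalization moved the median of all genes by less than 0.1 (log2).

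Leaving out 1 library at a time gave 903 to 2087 genes called over both sexes (1617 with all libraries), 94 to 785 in females (426), 289 to 1665 in males (1111), 1 to 115 for the difference between the sexes (1) and 9 to 1029 for females against males in YSGr (11). The mitotic genes called ranged from 0 to 6 over both sexes, 0 to 8 in males and 0 to 13 between the sexes in YSGr. Their median ranged from -0.40 to -0.15 over both sexes, from -0.32 to 0.15 in females, from 0.10 to 0.61 for the difference and from 0.13 to 0.62 in YSGr. The genes without overlap between genotypes numbered 1 to 2 over both sexes, against 3.05 to 5.87% of all genes, and 2 to 7 in females, against 15.9 to 22.5% of all genes. Ccnb1 ranged from -0.26 to 0.026 over both sexes and was above 0 without YSGr female 11.

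With library weights 6 mitotic genes (16.7%) were called over both sexes, all lower, against 4986 of all genes (35.2%). Of all genes 17.9% were called as lower. In females 4 were called (11.1%), with a median of 0.013, against 4483 of all genes (31.7%). These were Incenp and Nek2, lower, and Nuf2 and Spc25, higher. In males 4 were called, all lower (11.1%), against 2326 of all genes (16.4%), with 7.26% of all genes called as lower. Between the sexes in YSGr 8 were called, all higher in females (22.2%), against 1819 of all genes (12.9%). Of all genes 4.21% were called as higher in YSGr females. For the difference 675 genes were called, and 28 between the sexes in SG. The mitotic genes called over both sexes and in males were 1 and 0 without a filter or without a trend, and 1 and 1 with a stricter filter. Of all genes, 10.1% and 4.91% were called without a filter, and 10.7% and 5.24% without a trend. With a stricter filter 11% and 7.23% were called. Without a sex term 1 mitotic gene was called over both sexes, as lower (2.78%), against 9.26% of all genes, with 4.27% called as lower. With only the libraries compared, 761 genes were called in females, 318 in males with 0 mitotic genes, and 7 between the sexes in YSGr. Without SG male 2 and YSGr male 8 together, 1 mitotic gene was called over both sexes, against 13.7% of all genes, and 0 in males, against 1.75%. In that set 1267 genes were called in females, 247 in males and 19 between the sexes in YSGr. Without YSGr male 8 and YSGr female 11 together, chosen after seeing the data, 1 mitotic gene was called over both sexes, 1 in females (Spc25, higher), 0 in males and 4 between the sexes in YSGr. Of all genes, 10.3% were then called over both sexes and 5.65% in males. In the same set 762 genes (5.39%) were called in females, 183 for the difference and 685 (4.84%) between the sexes in YSGr. The 4 mitotic genes called between the sexes were all higher in females. Of all genes 1.63% were called as higher in females by genotype, and 0.325% as higher in YSGr females than in YSGr males. The median was then -0.072 over both sexes and 0.15 in females, with Top2a at 0.0069 and Ccnb1 at 0.075. Incenp was past the threshold over both sexes in 22 of 23 settings and Aurkb in 7 of 23. The cause of these changes was not tested.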
